A study of Mus musculus with 6 samples.

Results

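The *Clec* genes, named for the C-type lectin domain, were taken by symbol from a table of read counts per gene. The table covers CD11b+ tumor cells, which the methods call macrophages. All 33 genes whose symbol is Clec followed by a digit were members, out of 25701 genes in the table, and 21 of them had enough reads to be tested among 13485 genes. Poly-A RNA of CD11b+ cells, selected with magnetic beads from digested subcutaneous TC1 tumors, was sequenced in 3 MCT2 CO and 3 MCT2 KO samples. TC1 is a mouse lung epithelial tumor line, and CD11b is a surface integrin of macrophages, monocytes and neutrophils. Mice of both groups belonged to 1 conditional MCT2 (*Slc16a7*) line on a C57BL/6 background, MCT2loxP/loxP crossed with the mCre-Tg transgene. At 8 weeks of age, mice were given tamoxifen in the MCT2 KO group and vehicle in the MCT2 CO group, TC1 cells were then implanted under the skin of the flank, and tumors were taken after 24 days. An effect of tamoxifen and an effect of the deletion therefore cannot be told apart, and by the methods the deletion was systemic, not limited to macrophages. The cell type or promoter that drives the mCre-Tg transgene is not given in the sources used here. The tissue entry of the sample records reads lung, although by the methods the tumors grew on the flank.

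C-type lectin receptors are surface proteins of myeloid cells that bind sugars, lipids or protein ligands on microbes and on damaged cells. The activating receptors signal through the kinase Syk, either by a tyrosine motif in their own tail or by the adaptors FcRγ (*Fcer1g*) and DAP12 (*Tyrobp*), and then through the Card9, Bcl10 and Malt1 complex. The inhibitory receptors carry an immunoreceptor tyrosine-based inhibitory motif (ITIM) that recruits the phosphatases Shp-1 (*Ptpn6*) and Shp-2 (*Ptpn11*). Most myeloid members lie in gene clusters on chromosome 6, and other members serve NK-cell recognition, endothelium or matrix and are not myeloid receptors.

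The activating and inhibitory members differ at the start of their coding sequence, which for these receptors encodes the cytoplasmic tail. The first 60 bases (20 codons) from the start codon are shown 5′ to 3′ as read from GENCODE M21 transcripts on GRCm38, all of them from chromosome 6. Capitals mark the codons of an ITIM in *Clec4a2*, *Clec4a4* and *Clec12a*, the codons of the short activating motif (hemITAM) in *Clec7a*, and a tyrosine codon outside any ITIM in *Clec4a1* and *Clec4a3*.
Clec4a2: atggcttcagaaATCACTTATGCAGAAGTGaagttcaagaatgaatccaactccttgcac
Clec4a4: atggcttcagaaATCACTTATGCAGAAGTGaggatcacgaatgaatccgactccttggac
Clec12a: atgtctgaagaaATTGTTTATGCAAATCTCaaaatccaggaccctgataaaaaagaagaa
Clec4a1: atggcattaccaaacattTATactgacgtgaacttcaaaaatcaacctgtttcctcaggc
Clec4a3: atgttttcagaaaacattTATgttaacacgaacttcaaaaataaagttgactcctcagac
Clec7a: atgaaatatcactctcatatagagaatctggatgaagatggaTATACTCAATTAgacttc
Clec4n: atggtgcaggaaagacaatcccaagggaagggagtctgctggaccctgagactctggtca
Clec4d: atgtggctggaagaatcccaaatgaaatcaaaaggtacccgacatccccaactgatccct
Clec4e: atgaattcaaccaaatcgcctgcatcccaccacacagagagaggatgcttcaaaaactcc

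The ITIM lay at codons 5 to 10 in all 3 inhibitory members shown. In the paralogs *Clec4a1* and *Clec4a3* a tyrosine codon stood at the same position, codon 7, but the codons around it did not form the motif, so these were kept in a class of their own. *Clec7a* held its hemITAM at codons 15 to 18. *Clec4n*, *Clec4d* and *Clec4e*, receptors that work through the adaptor FcRγ, had 0 tyrosine codons in this stretch.

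Total counts per library ranged from 24863611 to 31713704. The targeted gene, *Slc16a7*, had CPM values (read counts scaled to a common library size) of 16.04, 11.04 and 11.2 in MCT2 CO and 8.22, 4.97 and 5.34 in MCT2 KO, each in the order of replicates 1 to 3 (log2 fold change -1.05, adjusted p = 0.370 in edgeR's quasi-likelihood test). MCT2 CO replicate 3 and MCT2 KO replicate 2 most often held an extreme value: the first was the highest of the 6 samples in 24.9% of the genes tested and the lowest in 23.2%, and the second in 20.4% and 22.7%, against 9.14% to 20.4% and 8.87% to 18.7% for each other sample. The defining macrophage markers were abundant, with *Csf1r* between 843 and 1408 CPM, and the summed level of the 10 macrophage markers was 10841, 8494 and 7175 CPM in MCT2 CO and 14709, 6977 and 8985 in MCT2 KO. Some fibroblast markers were abundant too, with *Col1a2* between 338 and 547 CPM and *Pdgfra* between 352 and 483 CPM. The share of macrophages in these preparations was not tested. The gene of CD11b itself, *Itgam*, had 1 count in all and could not serve as a check, since 99.1% of its exon bases lie inside the span of *Gm49368*. The labels number the samples as replicates of a group and say nothing more of their origin, so the p values measure the spread between these 6 preparations, which may be partly technical.

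No *Clec* gene was called different between MCT2 KO and MCT2 CO by edgeR's quasi-likelihood test, with the limits set at 0.05 for the adjusted p and 0.58 for the size of the log2 fold change, and 0 genes (0%) of the 13485 tested were. The median fold change was higher for the activating than for the inhibitory receptors, and the difference was not tested. Of the 7 activating members tested, 6 had a log2 fold change above 0, and their median was 0.40. The 3 inhibitory members tested were also above 0, with a median of 0.17, beside a median of 0.00037 over all genes tested. Over all 21 members, 17 log2 fold changes were above 0 and 4 below, beside 50.1% of all genes tested above 0. The number above 0 was 12 of 21 without MCT2 KO replicate 3 and 14 of 21 with limma-voom. At an unadjusted p under 0.05, the members numbered 2, both activating receptors higher in MCT2 KO (*Clec4n* and *Clec4e*), which is a share of the 21 members close to the 9.37% of all genes tested at that level, 3.77% higher and 5.6% lower. With DESeq2 on every gene that had a count, 0.584% of the genes and 0 members were called. In that fit 2 members (*Clec4n* and *Clec7a*) had an unadjusted p under 0.05, beside 6.7% of all genes with a count.

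**Figure D1:**
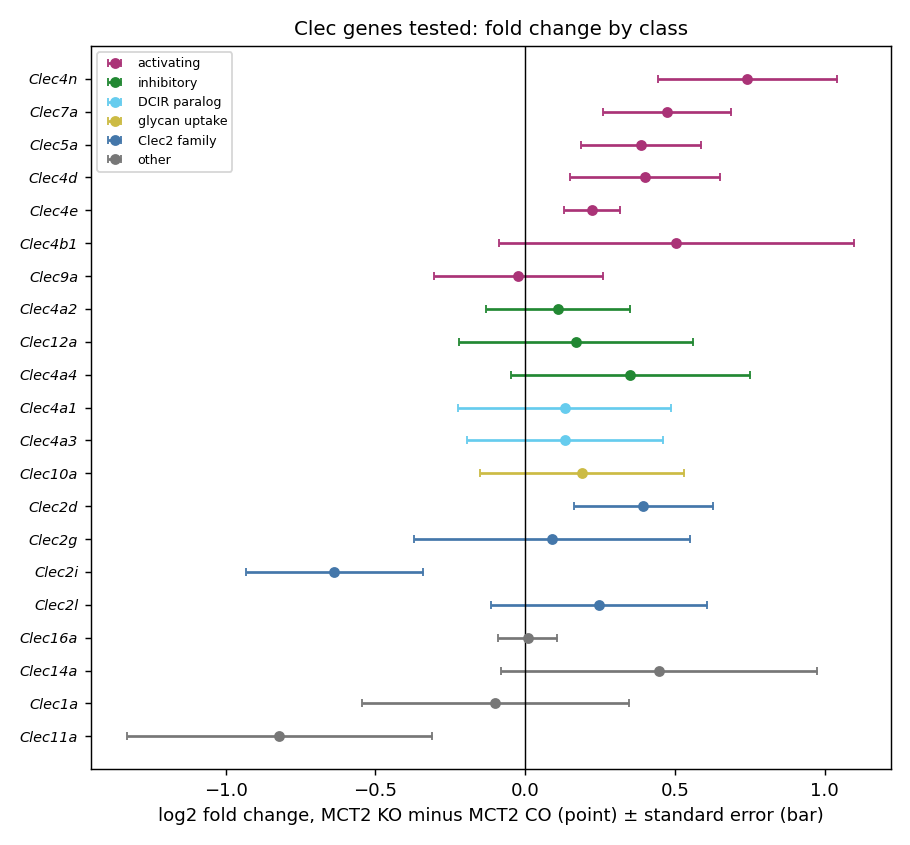
Log2 fold change of each of the 21 Clec genes tested (MCT2 KO minus MCT2 CO, horizontal axis), with bars of 1 standard error from edgeR's quasi-likelihood fit, grouped and colored by class. The activating receptors Clec4n, Clec7a, Clec5a, Clec4d and Clec4e lie between 0.22 and 0.74 with bars clear of 0. The bars of the activating Clec4b1 and Clec9a and of all 3 inhibitory receptors cross 0. Outside these classes, the bars of Clec2d (above 0) and of Clec2i and Clec11a (below 0) are clear of 0 as well. The smallest adjusted p of the 21 genes in that test is 0.513.

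The 11 most abundant members, at a mean of 10 CPM or more, included 5 activating receptors. Highest among these was *Clec4n*, which encodes Dectin-2, a receptor for mannose-rich glycans of fungi. It had 179, 117 and 89.6 CPM in the 3 MCT2 CO samples, again by replicate number, and 245, 261 and 137 CPM in the 3 MCT2 KO samples. MCT2 KO replicates 1 and 2 were above every MCT2 CO sample, while MCT2 KO replicate 3 lay between MCT2 CO replicates 1 and 2, so the groups overlapped. The means were 128 ± 45.8 CPM in MCT2 CO and 214 ± 67.4 CPM in MCT2 KO (SD, n = 3). The log2 fold change of 0.74 (standard error 0.30) was the highest of the 21 members (edgeR's quasi-likelihood test, adjusted p = 0.513). By exact two-sided permutation test, p was 0.2, where 0.1 is the smallest value that 3 samples against 3 allow. Its log2 fold change ranged from 0.54 without MCT2 CO replicate 3 to 1.06 without MCT2 CO replicate 1, and was 0.37 without both MCT2 CO replicate 3 and MCT2 KO replicate 2.

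*Clec7a*, which encodes Dectin-1, the receptor for β-glucan, had 135, 111 and 83.5 CPM in MCT2 CO and 197, 129 and 132 CPM in MCT2 KO. A single control, MCT2 CO replicate 1, overlapped the MCT2 KO samples, and MCT2 KO replicate 1 stood above all others (log2 fold change 0.47, standard error 0.21, adjusted p = 0.546 in edgeR's quasi-likelihood test). Without that sample the log2 fold change of *Clec7a* was 0.25, and without MCT2 CO replicate 3 it was 0.31. *Clec5a*, which encodes MDL-1, a partner of DAP12 in monocytes and neutrophils, had 85.9, 68.6 and 54.7 CPM in MCT2 CO and 109, 95.2 and 69.4 CPM in MCT2 KO. Here too 2 MCT2 KO samples were above every control and MCT2 KO replicate 3 was not (log2 fold change 0.39, standard error 0.20, adjusted p = 0.586). The log2 fold change of *Clec5a* was 0.24 without MCT2 KO replicate 1 and also without MCT2 CO replicate 3.

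*Clec4d* and *Clec4e* encode MCL and Mincle, neighbouring receptors for mycobacterial glycolipids that pair at the cell surface. *Clec4e* had 41.9, 37.4 and 38.9 CPM in MCT2 CO and 46.0, 49.7 and 42.1 CPM in MCT2 KO. It was the only member tested whose groups did not overlap, with MCT2 KO wholly above MCT2 CO, although MCT2 KO replicate 3 exceeded MCT2 CO replicate 1 by less than the spread within either group. A complete separation of the groups was found in 15.8% of all genes tested, 7.07% with MCT2 KO above and 8.77% with MCT2 KO below. The log2 fold change of *Clec4e* was 0.22 (standard error 0.09, adjusted p = 0.528 in edgeR's quasi-likelihood test). *Clec4d* had 56.5, 40.3 and 36.3 CPM in MCT2 CO and 81.8, 45.2 and 48.8 CPM in MCT2 KO. Its difference rested on MCT2 KO replicate 1: the log2 fold change of 0.40 (SE 0.25, adjusted p = 0.648) came to 0.085 without that sample and to 0.61 without MCT2 CO replicate 1. The ratio of *Clec4d* to *Clec4e* CPM was 1.78 in MCT2 KO replicate 1 and between 0.909 and 1.35 in the other samples.

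The remaining activating members were low. *Clec4b1*, which encodes DCAR, had 3.37, 2.27 and 3.76 CPM in MCT2 CO and 4.49, 1.04 and 7.95 CPM in MCT2 KO, so that MCT2 KO replicate 3 was 7.62 times MCT2 KO replicate 2. *Clec9a*, which encodes DNGR-1, a receptor for the actin of dead cells on cross-presenting dendritic cells, had 0.901 to 1.37 CPM over the 6 samples and a log2 fold change of -0.02 (standard error 0.28). Of its exon bases 5.59% lie inside the span of *Clec1b*. *Clec1b* (CLEC-2, the podoplanin receptor of platelets) and *Clec4b2* were not tested, with 17 and 4 counts over all samples.

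**Figure D2:**
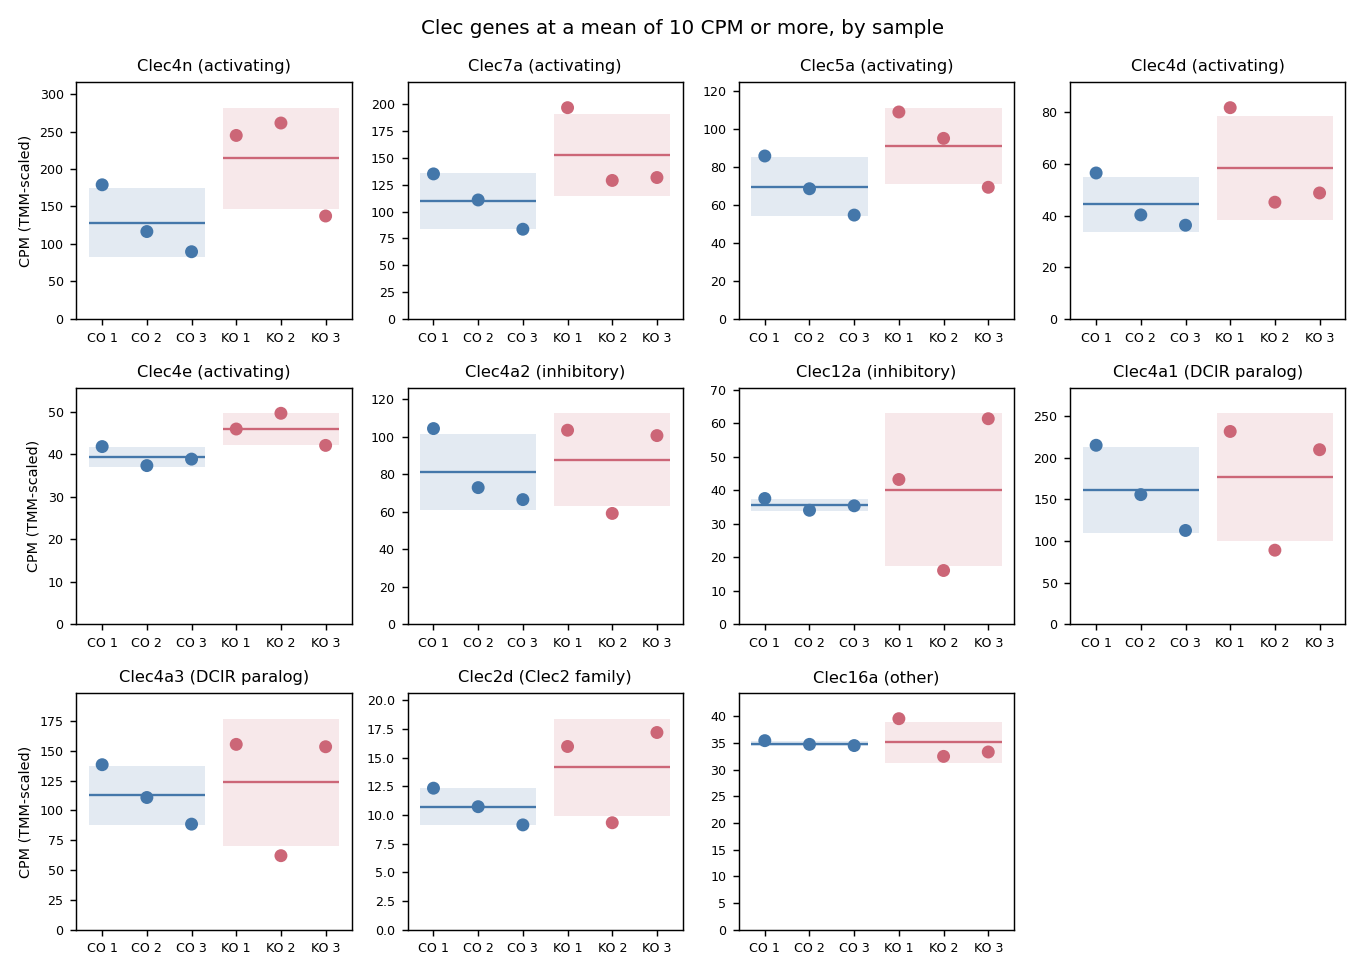
CPM (scaled by TMM) of the 11 Clec genes at a mean of 10 CPM or more, a panel each, with MCT2 CO samples in blue and MCT2 KO samples in red; lines are group means and bands 1 SD (n = 3). The groups are separate in the panel of Clec4e alone, and MCT2 KO replicate 2 is the lowest sample for Clec4a1, Clec4a3, Clec4a2, Clec12a and Clec16a.

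Among the inhibitory receptors, *Clec4a2* (DCIR) had 104, 72.9 and 66.5 CPM in MCT2 CO and 104, 59.2 and 101 CPM in MCT2 KO. MCT2 KO replicate 2 was the lowest of the 6 samples and the other MCT2 KO samples were level with MCT2 CO replicate 1 (log2 fold change 0.11, standard error 0.24, adjusted p = 0.909 in edgeR's quasi-likelihood test). *Clec12a*, which encodes MICL, a receptor for uric acid crystals, had 37.6, 34.1 and 35.4 CPM in MCT2 CO and 43.3, 16.1 and 61.4 CPM in MCT2 KO. The controls lay close together, whereas the MCT2 KO samples lay on both sides of them, 3.82 times apart from lowest to highest. The SD was 1.78 CPM in MCT2 CO and 22.8 CPM in MCT2 KO (n = 3 each), and the log2 fold change of 0.17 (standard error 0.39) came to 0.55 without MCT2 KO replicate 2 and -0.27 without MCT2 KO replicate 3. *Clec4a4* (DCIR2), a receptor of a dendritic cell subset, stayed between 0.527 and 1.40 CPM, and its log2 fold change of 0.35 (standard error 0.40) was 0.88 without MCT2 CO replicate 1 and 0.091 without MCT2 CO replicate 3. Of the words of 50 bases in its transcripts, 15.7% also occur in transcripts of another gene, most often *Clec4a2*, so its few reads could be shared. *Clec12b* was not tested, with 5 counts.

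The paralogs without a full motif were among the highest members. *Clec4a1* had 215, 156 and 113 CPM in MCT2 CO and 231, 89.0 and 209 CPM in MCT2 KO, and *Clec4a3* had 138, 111 and 88.5 CPM in MCT2 CO and 155, 62.1 and 153 CPM in MCT2 KO. Both genes were highest in MCT2 KO replicate 1 and lowest in MCT2 KO replicate 2, and the ratio of *Clec4a1* to *Clec4a3* CPM stayed between 1.27 and 1.55. Their log2 fold changes were both 0.13 (standard errors 0.35 and 0.33).

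Compared per length, as the mean CPM per kb of exon over the 6 samples, *Clec4n* (121, range 63.1 to 184), *Clec4a1* (108, range 57.1 to 148) and *Clec4a3* (89.0, range 46.8 to 117) had the highest levels, and these did not differ beyond their ranges. *Clec7a* followed at 49.7, *Clec4d* at 32.2, *Clec4a2* at 28.9 and *Clec5a* at 20.97, each range overlapping the next. *Clec2d* (10.3), *Clec4e* (8.59), *Clec12a* (6.87), *Clec4b1* (4.86) and *Clec16a* (4.18) came next, each range again overlapping the next. The other 9 members tested lay at 1.84 or less, down to 0.142 for *Clec1a*. Reads of introns may have been counted, since the deposited gene lengths are whole spans, so these levels are approximate.

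**Figure D3:**
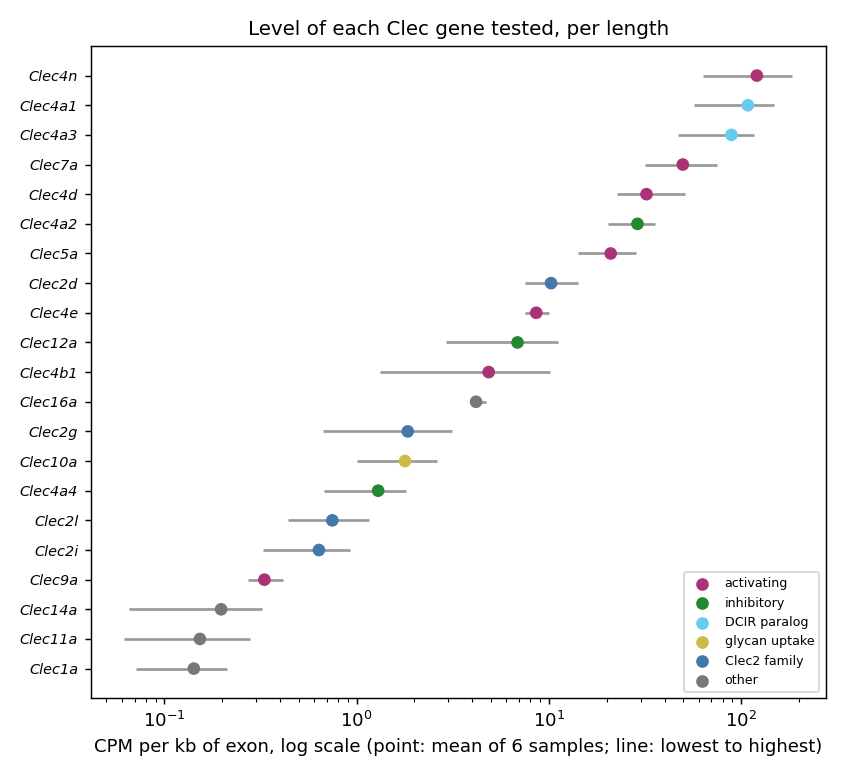
Level of each of the 21 Clec genes tested as CPM per kb of exon on a log axis, with points for the mean of the 6 samples, lines from the lowest to the highest sample, and colors for the class. Clec4n, Clec4a1 and Clec4a3 head the list with overlapping ranges between 46.8 and 184.

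MCT2 KO replicate 2 set members apart from each other. It was the lowest of the 6 samples for 9 of the 21 members (42.9%), against 22.7% of all genes tested, and the highest for 4 of 21 (19.0%), against 20.4%. Relative to the median of the other 5 samples, its CPM was 0.277 times for *Clec4b1*, 0.349 for *Clec2g*, 0.425 for *Clec4a1* and 0.428 for *Clec12a*. It was 0.439 times for *Clec11a*, 0.449 for *Clec4a3*, 0.514 for *Clec2i* and 0.588 for *Clec4a2*. In the same sample *Clec4n* was 1.90 times, *Clec2l* 1.77 times and *Clec10a* 1.63 times the median of the others. *Clec14a* was 1.39 times, *Clec5a* 1.37 times and *Clec4e* 1.19 times that median, while *Clec7a* (0.979) and *Clec4d* (0.927) were near it. *Clec4a4*, *Clec2d*, *Clec9a*, *Clec1a* and *Clec16a* lay between 0.690 and 0.935. *Clec4n* thus took 30.2% of the summed CPM of the 33 *Clec* genes in MCT2 KO replicate 2 and 13.3% to 19.0% in each of the others, and *Clec4a1* took 10.3% there and 16.7% to 20.3% elsewhere. Genes outside the family were low or high in this sample as well: *Ptprc*, the pan-leukocyte gene CD45, had 431 CPM there and 555 to 917 in the other samples, and the summed CPM of the 10 B-cell markers was 27.9 there and 85.5 to 117 elsewhere. The monocyte markers *F13a1* and *Chil3* were high there, at 129.5 CPM (4.30 times the median of the others) and 88.4 CPM (2.29 times). The part of these differences in the *Clec* values was not tested.

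**Figure D4:**
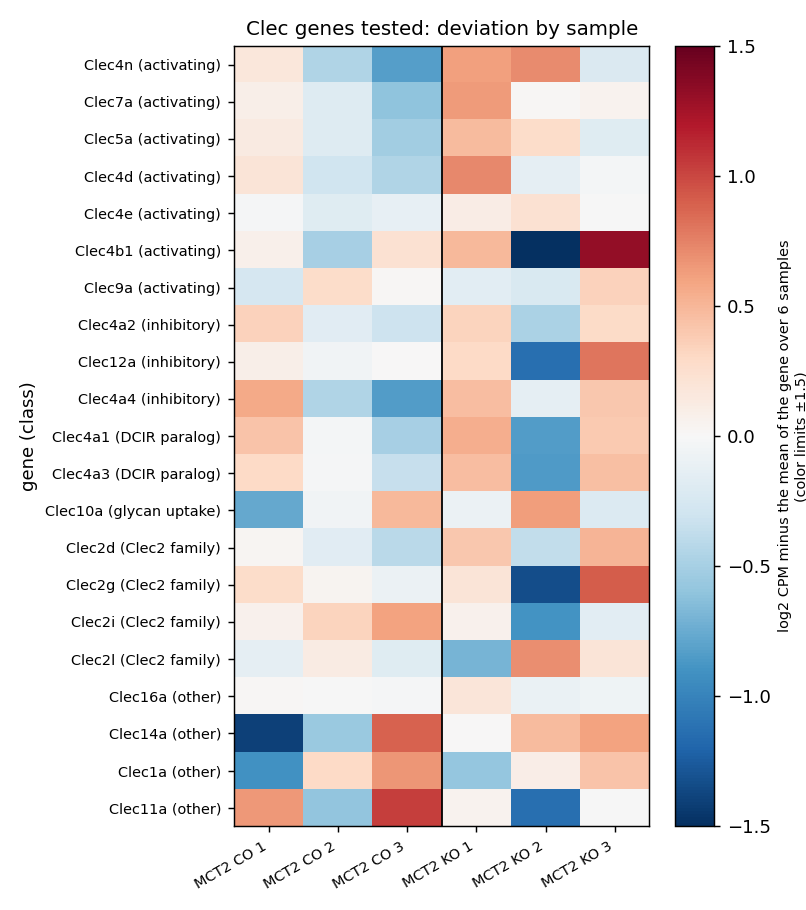
Log2 CPM of each of the 21 Clec genes tested (rows) in each sample (columns) minus the mean of that gene over the 6 samples, with red for higher, blue for lower and color limits at 1.5. In MCT2 KO replicate 2 the Clec4a1, Clec4a2, Clec4a3, Clec12a, Clec4b1, Clec2g, Clec2i and Clec11a rows are the deepest blue. The Clec2d, Clec9a, Clec4a4, Clec4d and Clec16a rows are also below their means in that sample, in paler blue. The Clec4n, Clec5a, Clec4e, Clec10a, Clec2l and Clec14a rows are red there.

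Some of the members with opposite values in that sample are close neighbours on the chromosome. By GENCODE M21 on GRCm38, 25 of the 33 members lie on chromosome 6. A cluster of 9 members from *Clec4a1* to *Clec4e* (122921848 to 123289870) holds *Clec4a1*, *Clec4a3*, *Clec4a4*, *Clec4b1*, *Clec4a2*, *Clec4b2*, *Clec4n*, *Clec4d* and *Clec4e* in this order, and 8 of them were tested. In MCT2 KO replicate 2 the *Clec4a* genes and *Clec4b1* were below the median of the other samples while *Clec4n* (123229843 to 123247021) was above it. A further cluster of 13 members from *Clec2h* to *Clec7a* (128662385 to 129472779), of which 7 were tested, holds *Clec12a*, *Clec12b*, *Clec1b*, *Clec9a*, *Clec1a*, *Clec7a* and all *Clec2* genes but *Clec2l*. *Clec5a* lies apart, from 40574894 to 40585821. The genes of the first cluster were not equally separable by their reads: 8.68% of the words of 50 bases of *Clec4b1* and 6.83% of those of *Clec4a2* occur in other genes, against 0.686% for *Clec4n* and 0% for *Clec4a1*, *Clec4a3*, *Clec4d* and *Clec4e*.

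Promoters are shown for a pair of members that were low together in MCT2 KO replicate 2, *Clec4a1* and *Clec12a*, and for *Clec4e*, which was not. RefSeq sequences of 300 bases on GRCm38.p6 (250 before and 50 after the start) run 5′ to 3′ on the strand of the gene: chr6:122921598-122921897 on the plus strand for *Clec4a1*, chr6:129349994-129350293 on the plus strand for *Clec12a*, and chr6:123289822-123290121 on the minus strand for *Clec4e*. Capitals mark GAGGAA, the core of the site of the myeloid factor PU.1, or its reverse complement TTCCTC.
Clec4a1: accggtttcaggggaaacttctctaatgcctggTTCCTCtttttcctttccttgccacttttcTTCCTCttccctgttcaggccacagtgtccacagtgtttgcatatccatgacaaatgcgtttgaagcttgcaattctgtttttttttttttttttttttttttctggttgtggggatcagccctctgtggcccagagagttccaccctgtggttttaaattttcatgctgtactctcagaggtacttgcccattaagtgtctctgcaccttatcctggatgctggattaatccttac
Clec12a: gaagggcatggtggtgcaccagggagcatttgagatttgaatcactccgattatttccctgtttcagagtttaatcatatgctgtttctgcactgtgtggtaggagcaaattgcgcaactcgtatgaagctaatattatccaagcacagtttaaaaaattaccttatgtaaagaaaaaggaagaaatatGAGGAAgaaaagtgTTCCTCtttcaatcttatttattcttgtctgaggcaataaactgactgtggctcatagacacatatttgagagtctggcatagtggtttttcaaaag
Clec4e: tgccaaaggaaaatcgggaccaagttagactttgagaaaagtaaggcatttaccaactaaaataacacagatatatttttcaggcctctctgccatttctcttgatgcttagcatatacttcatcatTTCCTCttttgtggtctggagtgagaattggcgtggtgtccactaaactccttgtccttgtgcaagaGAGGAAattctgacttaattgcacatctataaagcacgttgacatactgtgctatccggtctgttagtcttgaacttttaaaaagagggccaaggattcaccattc

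Each of the 3 windows held 2 matches. The motif, searched on both strands, was present in 12 of the 17 members tested that had a promoter sequence and in 28.28% of 32851 promoters of all genes, and a member with several promoters was counted when any of them held it. *Clec4a2* had 0 matches and *Clec4d* had 3. *Clec4n*, *Clec10a*, *Clec4a4* and *Clec1a* had no entry.

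Set against each other within a sample, the summed CPM of the 7 activating members was 503, 377 and 308 in MCT2 CO and 684, 582 and 439 in MCT2 KO, and that of the 3 inhibitory members was 143, 108 and 102 in MCT2 CO and 148, 76.1 and 163 in MCT2 KO. The ratio of activating to inhibitory CPM was 3.50, 3.50 and 3.01 in MCT2 CO and 4.62, 7.65 and 2.69 in MCT2 KO. The MCT2 CO samples lay close together and the MCT2 KO samples on both sides of them, with MCT2 KO replicate 2 highest and MCT2 KO replicate 3 lowest of all 6. The median log2 fold change of the inhibitory members moved from 0.17 to 0.53 without MCT2 KO replicate 2 and to 0.0022 without MCT2 KO replicate 3, and that of the activating members stayed between 0.24 and 0.56 with each sample left out in turn.

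**Figure D5:**
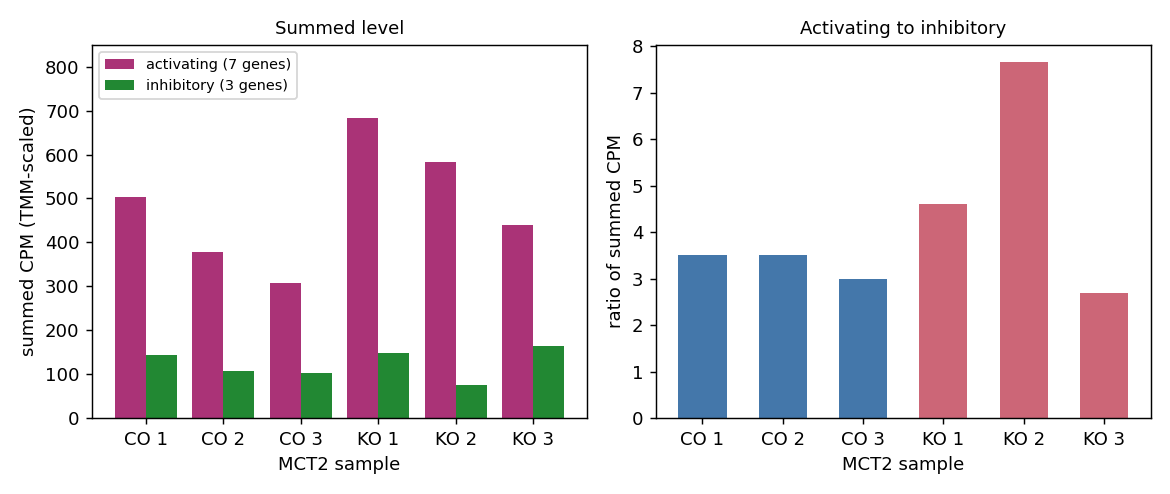
Left, summed CPM of the 7 activating and the 3 inhibitory Clec genes tested in each sample; right, the ratio of both sums, with MCT2 CO in blue and MCT2 KO in red. The ratio is 3.01 to 3.50 in MCT2 CO and runs from 2.69 in MCT2 KO replicate 3 to 7.65 in MCT2 KO replicate 2.

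*Clec10a*, which encodes the galactose-type lectin MGL1 of macrophages and dendritic cells, had 2.90, 4.77 and 6.89 CPM in MCT2 CO and 4.65, 7.58 and 4.26 CPM in MCT2 KO (log2 fold change 0.19, standard error 0.34). The groups overlapped, with MCT2 KO replicate 2 highest. Its neighbour *Mgl2*, which encodes the related lectin MGL2 and shares words of 50 bases with *Clec10a* (9.02% of those of *Clec10a* occur elsewhere), had 6.37, 11.6 and 13.7 CPM in MCT2 CO and 17.2, 33.8 and 6.87 CPM in MCT2 KO and was also highest in that sample. *Clec4f*, the Kupffer cell receptor, had 0 counts, which allows up to 0.018 CPM over the 6 libraries together, and *Clec4g* of liver sinusoids had 4 counts.

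Several *Clec2* genes encode ligands of the NKR-P1 receptors of NK cells. *Clec2d*, the ligand that signals self to NK cells, had 12.3, 10.7 and 9.14 CPM in MCT2 CO and 15.97, 9.33 and 17.2 CPM in MCT2 KO. MCT2 KO replicates 1 and 3 were above every control and MCT2 KO replicate 2 was not (log2 fold change 0.39, standard error 0.23, adjusted p = 0.631 in edgeR's quasi-likelihood test). Its log2 fold change was 0.23 without MCT2 KO replicate 3 and 0.63 without MCT2 KO replicate 2. *Clec2g* had 4.48 to 5.80 CPM in MCT2 CO and 5.45, 1.90 and 8.96 CPM in MCT2 KO. *Clec2i* had 1.97, 2.38 and 2.86 CPM in MCT2 CO and 1.97, 1.01 and 1.69 CPM in MCT2 KO, and its log2 fold change of -0.64 (SE 0.30, adjusted p = 0.554) was the only one below 0 in this class and was -0.39 without MCT2 KO replicate 2, and 4.95% of its exon bases lie inside the span of *BC035044*. *Clec2l* lay between 0.629 and 1.66 CPM. *Clec2e*, *Clec2f*, *Clec2h* and *Clec2m* were not tested, with 14, 23, 1 and 2 counts.

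The members that are not myeloid receptors were low or even over the samples. *Clec16a*, an endosomal protein gene that shares only the name, had the smallest spread, 32.5 to 39.5 CPM, and a log2 fold change of 0.0083 (standard error 0.10). *Clec14a*, an endothelial surface gene, had 0.300, 0.538 and 1.47 CPM in MCT2 CO and 0.797, 1.11 and 1.21 CPM in MCT2 KO, and its log2 fold change ran from 0.048 without MCT2 CO replicate 1 to 1.32 without MCT2 CO replicate 3. *Clec1a* had 0.367 to 1.09 CPM. The summed CPM of 9 endothelial markers was 99.7 to 107 in MCT2 CO and 127, 94.7 and 146 in MCT2 KO, and its part in the values of *Clec14a* was not tested. *Clec11a*, a secreted growth factor gene of bone and marrow stroma, had the lowest log2 fold change of the 21 members tested, -0.82 (standard error 0.51, adjusted p = 0.645 in edgeR's quasi-likelihood test), at 0.184 to 0.828 CPM. It was -0.49 without MCT2 CO replicate 3 and also without MCT2 KO replicate 2. *Clec3b* (tetranectin), a matrix protein gene, was not tested. It had 2, 14 and 14 counts in MCT2 CO and 1, 3 and 3 in MCT2 KO, and 7 of 8 fibroblast markers had log2 fold changes below 0, with summed CPM of 2053, 2253 and 3368 in MCT2 CO and 1834, 1826 and 1735 in MCT2 KO. *Clec18a* had 9 counts and *Clec3a* 0.

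No difference was detected in the genes downstream of these receptors. Of 26 signalling genes (adaptors and proximal kinases, the Card9 module and NF-κB, phosphatases and brakes), 0 passed the thresholds and 0 reached an unadjusted p under 0.05 in edgeR's quasi-likelihood test. Their median log2 fold change was 0.035, with 15 above 0 and 11 below. In the Card9 and NF-κB list, 7 of 10 genes were below 0, down to -0.35 for *Rel*. The examples that follow were picked for their role after their values were seen, and each has a log2 fold change above 0. The adaptor genes *Fcer1g* and *Tyrobp* had 253 to 380 and 251 to 307 CPM in MCT2 CO, against 456, 227 and 411 and 416, 242 and 321 CPM in MCT2 KO. Both were highest in MCT2 KO replicate 1 and lowest in MCT2 KO replicate 2. *Syk* had 217 to 270 CPM in MCT2 CO and 326, 194 and 274 CPM in MCT2 KO, in the same order. *Card9* had 39.3 to 48.9 CPM in MCT2 CO and 65.8, 41.3 and 47.0 CPM in MCT2 KO, and *Ptpn6*, the phosphatase gene, had 162 to 219 and 280, 178 and 282 CPM. *Clec4n* stood at its highest in the sample where its adaptor gene *Fcer1g* was at its lowest. Of 17 other C-type lectin genes tested outside the *Clec* names, 9 were above 0 and 8 below, with a median of 0.039 and 0 at an unadjusted p under 0.05.

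Marker lists of the cells that could carry *Clec* transcripts differed in direction. All 10 macrophage markers had log2 fold changes above 0, with a median of 0.25 and 0 at an unadjusted p under 0.05. The highest summed level of both the macrophage markers and the 33 *Clec* genes was in MCT2 KO replicate 1, where the *Clec* sum was 1289 CPM against 675 to 1060 in the other samples. Of 8 neutrophil markers tested, 5 lay wholly higher in MCT2 KO, beside 7.07% of all genes tested, with a median log2 fold change of 1.70 over the 8. The summed CPM of the list was 109 to 124 in MCT2 CO and 204, 110 and 147 in MCT2 KO, and *Ly6g* had 8 counts in all. *Csf3r* and *Mmp9*, whose groups overlapped, made up most of that sum. In MCT2 KO replicate 2, the 5 separate genes were 2.06 (*S100a8*) to 9.63 (*Ngp*) times the median of the other samples. *Mmp9* was 2.76 times that median there, *Csf3r* 0.435 times and *Cxcr2* 0.659 times. *Clec5a*, *Clec4d* and *Clec4e* are also transcribed in neutrophils and monocytes. Of the 8 monocyte markers, 4 were above and 4 below 0. *F13a1* lay wholly higher in MCT2 KO (log2 fold change 1.48) and *Chil3* was higher with overlap (0.98), both at an unadjusted p under 0.05 in edgeR's quasi-likelihood test with adjusted p of 0.380 and 0.491. The monocyte list, of which *Fn1* made up most, had summed CPM of 1734 to 2476 in MCT2 CO and 1703 to 2271 in MCT2 KO. The 12 dendritic cell markers had a median log2 fold change of -0.23, with 2 wholly lower in MCT2 KO beside 8.77% of all genes tested, and summed CPM of 270 to 334 in MCT2 CO and 416, 203 and 327 in MCT2 KO. Wholly lower were also 3 of the 8 B-cell markers tested (median -0.97), 3 of the 8 fibroblast markers (median -0.58) and 2 of the 10 T and NK cell markers. The last list had a median of 0.17 and summed CPM of 43.6 to 77.9 in MCT2 CO and 56.3, 36.6 and 117 in MCT2 KO. In bulk RNA, fewer cells of a type and less RNA per cell cannot be told apart, and the part of each cell type in the *Clec* values was not tested.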

How the data were processed

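Per the labels and the methods, reads of stranded poly-A libraries were checked by the authors (FastQC 0.12.0, MultiQC 1.28) and mapped with STAR 2.7.11b to GRCm38, and featureCounts 2.1.1 gave the deposited counts, neither normalized nor pooled. The annotation, the strand setting and the treatment of multi-mapped reads are not given in the sources used here. The deposited gene length, in bases, equals the whole span in all 25701 genes. Only 2.4% of the positions in the table match GENCODE M21 (GRCm38), from which positions and exon lengths were taken by identifier. The span length was the same in 98.13% of the genes found there. The deposited positions therefore look like those of another assembly than the GRCm38 that the methods name.

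Counts were filtered with filterByExpr (minimum count 10, minimum total 15), normalized by TMM and compared by the quasi-likelihood test of edgeR 4.0.16 (limma 3.58.1, DESeq2 1.42.0, R 4.3.3, Python 3.11.15), with Benjamini–Hochberg adjustment over 13485 genes. CPM values are TMM-scaled. The procedure was tested on simulated counts. Alternatives covered tools, normalization, filters, thresholds, a replicate block, overlapping genes and each sample left out, and a fit without MCT2 CO replicate 3 and MCT2 KO replicate 2 together was added after seeing the data. All tested members were named, and the members, gene lists and classes were chosen with earlier results of these data known. Marker lists covered macrophages, monocytes, neutrophils, dendritic, B, T and NK cells, endothelium and fibroblasts. No 2 libraries of a group agreed within sampling noise. Intervals and floors cover counting error only.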

Additional observations from a re-analysis of the deposited data

How the results depend on the processing

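No *Clec* gene was called under any alternative. Over all genes the calls numbered 79 with DESeq2 on the same genes, 83 with DESeq2 on every gene that had a count, 2 without a filter beyond 1 count, 10 without both MCT2 CO replicate 3 and MCT2 KO replicate 2, and 0 to 2 with each sample left out. Members higher at an unadjusted p under 0.05 numbered 4 with the replicate block, 6 without both samples and 0 to 5 with each sample left out. Of all genes, in either direction, 7.77% reached that level with the block, 9.2% without both samples and 5.76% to 11.5% with each left out. The 6 members without both samples were *Clec12a*, *Clec14a*, *Clec2d*, *Clec4a3*, *Clec4b1* and *Clec7a*, so *Clec4n* and *Clec4e* were not among them. Members lower at that level numbered 1 with limma-voom, where 8.97% of all genes reached it in either direction, and 0 to 1 with each sample left out. The same-numbered samples did not deviate together (correlations 0.22, -0.25 and -0.16), so the replicate numbers were not taken as pairs, and the cause of these changes was not tested. The sign of the log2 fold change turned with limma-voom for *Clec16a* (-0.00058), *Clec2g* (-0.24) and *Clec12a* (-0.062), with the replicate block for *Clec2g* (-0.12) and *Clec12a* (-0.010), and without both samples for *Clec2l* (-0.18), *Clec9a* (0.089) and *Clec1a* (0.22). With each sample left out it ran from -0.12 to 0.53 for *Clec10a*, -0.27 to 0.55 for *Clec12a*, -0.082 to 0.062 for *Clec16a*, -0.45 to 0.25 for *Clec1a*, -0.48 to 0.51 for *Clec2g*, -0.13 to 0.53 for *Clec2l*, -0.11 to 0.45 for *Clec4a1*, -0.025 to 0.33 for *Clec4a2*, -0.064 to 0.46 for *Clec4a3*, -0.21 to 0.99 for *Clec4b1* and -0.21 to 0.12 for *Clec9a*. *Slc16a7* passed the limits with DESeq2 alone (adjusted p = 0.00952 on the same genes and 0.00908 on every gene that had a count). *Clec4n*, *Clec7a*, *Clec5a*, *Clec4d*, *Clec4e*, *Clec2d*, *Clec4a4* and *Clec14a* stayed above 0 in all 15 alternatives, with adjusted p values of 0.243 or more. The 12 members left untested had at most 37 counts over the 6 libraries, too few for the test at this depth.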
